A study of Mus musculus with 5 samples.

Results

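The messenger RNA of the p53 gene, Trp53, and of 9 genes that the p53 protein switches on directly was examined in LSK cells, bone marrow cells that carry Sca1 and cKit but no lineage markers and include the blood stem cells. The 10 genes were taken by name from 24399 genes in the table: the transcription factor Trp53, its cofactor gene Trp53inp1, the cell cycle genes Cdkn1a and Ccng1, the feedback ligase gene Mdm2, the death genes Bax and Bbc3, and Phlda3, Sesn2 and Eda2r. All 10 passed the filter on low counts. The mice were C57BL/6 and 12 months old, and 5 libraries were sequenced, of which 3 have KO and 2 have WT in their titles. The KO-titled libraries come from a germ-line knockout line, but their genotype field gives a heterozygous genotype and the field of the others a wild-type one, so they are called KO-titled throughout. The labels name no treatment and do not say whether a library holds 1 mouse or a pool, nor that libraries came from separate animals. The p-values therefore measure the spread between these libraries, which may be technical.

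The p53 protein is made continuously and destroyed quickly, because the ligase encoded by Mdm2 marks it for degradation. Damage to DNA or other stress frees it from Mdm2, so that p53 activity is set mainly by protein stability and much less by the amount of Trp53 messenger RNA. Stable p53 binds paired copies of a short decamer in DNA and raises genes of cell cycle arrest, repair, metabolism and cell death. In blood stem cells the pathway is known for keeping cells quiescent and for removing damaged ones.

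Promoter sequence from RefSeq (build GRCm38.p6, 250 bases before to 50 bases after a start site) was matched for 9 of the 10 genes, all but Trp53inp1, in 12 windows. The p53 half-site decamer, which reads the same on both strands, was found in 5 of the 9 genes, Trp53, Cdkn1a, Mdm2, Ccng1 and Bax, and in 9.55% of all 27025 genes with a window. A pair of exact decamers with a spacer of up to 13 bases was found in 1 of them, Cdkn1a, and in 0.074% of all genes. The Cdkn1a pair has a spacer of 12 bases and lies 73 to 42 bases before the upstream start site. The window at the downstream start site of Cdkn1a held 0 decamers. A pair of adjacent decamers with no spacer and at most 1 base off the pattern in 20 was found in 2, Cdkn1a and Ccng1, and in 0.107% of all genes. This second pair search was added after the Cdkn1a sequence was seen. The Cdkn1a decamer 51 to 42 bases before the upstream start belongs to both pairs, so these are not separate sites. The stretches of these 2 genes are shown because they carry this adjacent form and because their messages lay on opposite sides of the wild type, with the adjacent pair in capitals.
Cdkn1a, 51 to 32 bases before the start (plus strand, chr17:29090908-29090967): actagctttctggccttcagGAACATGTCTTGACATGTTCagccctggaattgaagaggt
Ccng1, 195 to 176 bases before the start (minus strand, chr11:40755442-40755501): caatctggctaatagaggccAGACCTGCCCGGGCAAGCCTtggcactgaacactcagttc
The single decamers of the other 3 genes are shown for comparison, with the decamer in capitals.
Trp53, 75 to 66 bases before the start (plus strand, chr11:69580259-69580318): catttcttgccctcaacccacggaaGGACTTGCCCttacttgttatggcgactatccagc
Mdm2, 186 to 177 bases before the start (minus strand, chr10:117710910-117710969): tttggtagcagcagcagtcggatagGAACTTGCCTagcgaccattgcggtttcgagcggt
Bax, 201 to 192 bases before the start (minus strand, chr7:45467065-45467124): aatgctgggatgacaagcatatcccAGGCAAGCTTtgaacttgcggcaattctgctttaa
A match is a description of these letters and was not tested for binding, and no match says only that the decamer is not in this window.

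The libraries held 29964556 (WT library 1) to 39691066 (KO library 3) counts after 1 transcript was kept for each gene. Levels are given as CPM, the count relative to a library size that TMM, a correction for composition, has rescaled. Before that rescaling, 3 counts equalled 0.0756 to 0.1 CPM. Where values of single libraries are listed, they stand in the order of the replicate numbers, 1 to 3 for KO-titled and 1 to 2 for WT. Kit and Ly6a, which encode the cKit and Sca1 of the sort, and Cd34, Flt3 and Slamf1, which divide LSK cells into subsets, were all detected and summed to 2839 to 3228 CPM in KO-titled and 3051 to 3226 CPM in WT libraries. Kit and Cd34 made up most of that sum. Ly6a, at 97.4 ± 7.04 CPM in KO-titled (n = 3) and 78.4 ± 5.03 CPM in WT libraries (n = 2), was higher with no overlap (edgeR adjusted p = 0.175). Slamf1, at 26.2 ± 5.70 against 35.2 ± 4.33 CPM, was lower with no overlap (edgeR adjusted p = 0.307). Kit, at 1119 ± 29.6 against 1216 ± 15.5 CPM, was also lower with no overlap (edgeR adjusted p = 0.499), while Cd34 and Flt3 overlapped. Of all tested genes, 32.8% did not overlap. Markers of mature B cells (3.79 to 6.46 against 3.02 to 7.20 CPM), T and NK cells (8.15 to 11.4 against 9.18 to 13.5 CPM) and macrophages (4.96 to 5.40 against 6.70 to 7.39 CPM) were low. Erythroid markers, 4 genes, summed to 39.1 to 42.1 CPM in KO-titled and 23.4 to 24.7 CPM in WT libraries. Of these 4, the erythroid factor gene Klf1 rose 2.83-fold (edgeR adjusted p = 0.0169), while Epor lay slightly below WT, at -0.15 on the log2 scale (adjusted p = 0.842). Granulocyte and monocyte markers, of which 4 of 5 were measured, summed to 2467 to 3214 against 3521 to 3815 CPM. Mpo made up most of that sum (2491 ± 337 against 3273 ± 240 CPM, edgeR adjusted p = 0.0747), and 0 of these markers had an adjusted p under 0.05. The 3 stromal and endothelial markers summed to 55.1 to 84.3 against 107 to 119 CPM. The stromal marker Pdgfrb, which carried nearly all of this stromal and endothelial sum, fell 1.72-fold (edgeR adjusted p = 0.0388). The others of this list were near the floor. Cdh5 stood at 0.594 ± 0.228 against 1.18 ± 0.579 CPM (adjusted p = 0.684). Cxcl12 lay above WT, at 0.310 ± 0.135 against 0.235 ± 0.187 CPM (adjusted p = 0.938). No measured marker was at 0 in all libraries, and Pax5 and Ncr1 were at 0 in KO library 3. Hbb-b1, one of the erythroid markers, has counts identical to those of another gene. The part of these marker differences in the results below was not tested. In bulk samples, fewer cells of a type and less RNA per cell cannot be told apart.

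Of the 10 genes, Trp53inp1 fell in the KO-titled libraries and no other gene passed the test over all genes (edgeR's quasi-likelihood test with Benjamini-Hochberg adjustment, threshold 0.05). Over all 14565 tested genes the same test called 1.97%, of which 0.79% were higher and 1.18% lower. The median log2 fold change of the 10 genes was -0.10, beside 0.001 over all tested genes, with 4 genes above 0 and 6 below. At an unadjusted p under 0.05 stood 4 of the 10, 2 higher (Trp53 and Ccng1) and 2 lower (Trp53inp1 and Cdkn1a), against 13.8% of all tested genes (6.76% higher and 7.02% lower). The KO-titled and WT values did not overlap for 6 of the 10, 4 higher and 2 lower, against 32.8% of all tested genes (16.5% higher and 16.3% lower). The 10 genes were chosen with earlier results of these data known, so these counts beside all genes are a description only.

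**Figure D1:**
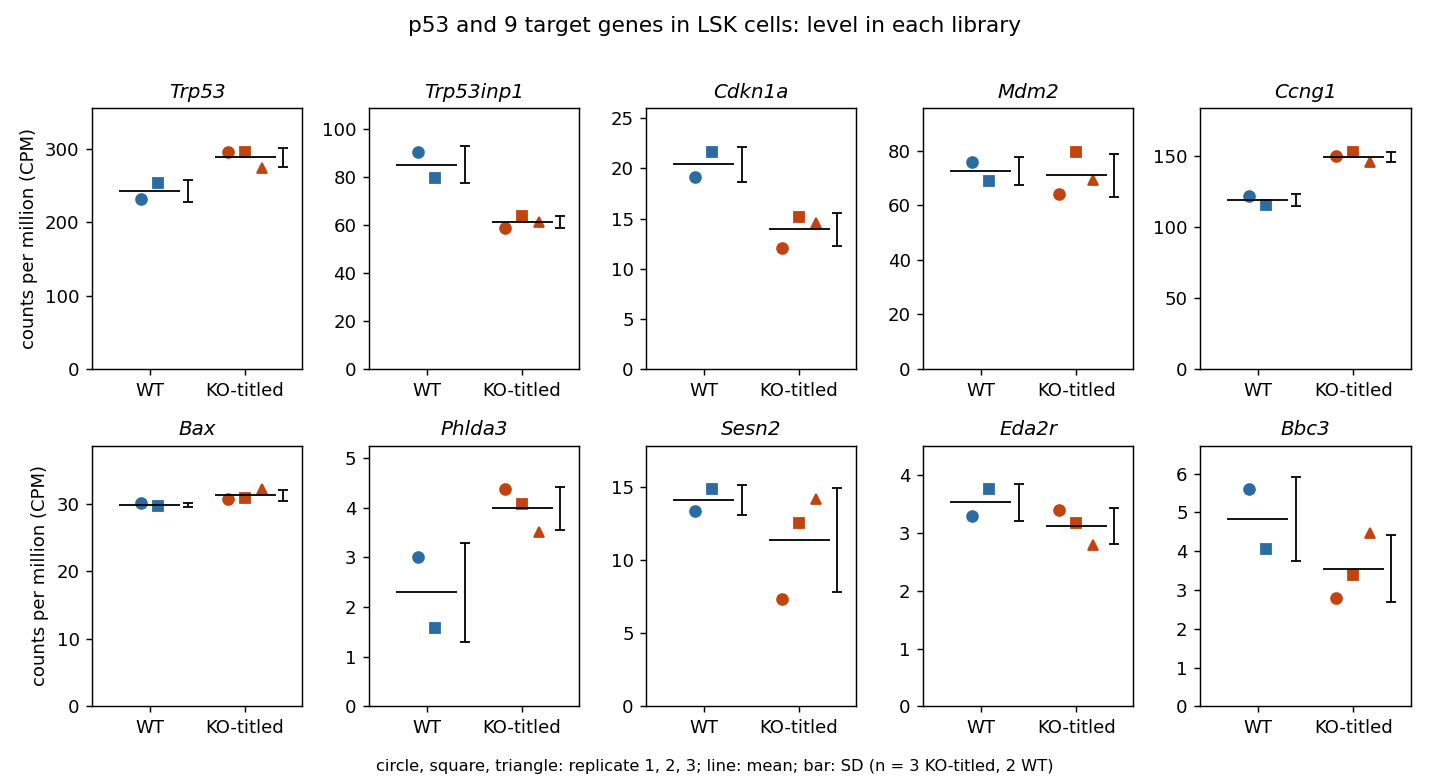
Level of each of the 10 genes in CPM (vertical axes, starting at 0) in the 2 WT libraries (blue) and the 3 KO-titled libraries (red), with circles, squares and triangles for replicates 1, 2 and 3, the group mean as a line and the SD as a bar. Trp53inp1 and Cdkn1a lie lower in all 3 KO-titled libraries. Trp53, Ccng1, Phlda3 and, by little, Bax lie higher in all 3, while values of the groups overlap for Mdm2, Sesn2, Eda2r and Bbc3.

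Trp53, the gene of p53 itself, was the most abundant of the 10. It stood at 296, 296 and 274 CPM in the KO-titled libraries and at 232 and 254 CPM in the WT libraries. All 3 KO-titled libraries were above both WT libraries. The mean was 289 ± 12.9 CPM (SD, n = 3) against 243 ± 15.4 CPM (SD, n = 2), a log2 fold change of 0.25 ± 0.08 (SE) with a 95% interval from 0.07 to 0.43. This difference did not pass over all genes (edgeR adjusted p = 0.187). Both RefSeq transcripts of the gene carried nearly the same reads, 49966 and 49693 counts over the 5 libraries. The reference lists a pseudogene copy, Trp53-ps, and since the authors' treatment of shared reads is not given, the level is uncertain to that extent.

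Mdm2 encodes the ligase that destroys p53 and is itself raised by p53, which closes a feedback loop. Its levels were 64.2, 79.7 and 69.4 CPM in the KO-titled libraries and 76.1 and 69.0 CPM in the WT libraries. The groups overlapped, with the KO-titled values both above and below the WT values. The log2 fold change was -0.03 ± 0.11 (edgeR adjusted p = 0.946), and its 95% interval of -0.28 to 0.22 leaves room for fold changes from 0.825 to 1.16. Within a library, where scaling plays no part, there were 0.217, 0.269 and 0.253 Mdm2 counts per Trp53 count in the KO-titled libraries and 0.328 and 0.272 in the WT libraries. The KO-titled ratios were all lower, by little in KO library 2, and an exact two-sided permutation test gave p = 0.2, the smallest that 3 against 2 libraries allow. This ratio and 2 others below were chosen with results of these data known, and each of the 3 gave the same p, also after Benjamini-Hochberg adjustment.

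Trp53inp1 encodes a stress protein that works with p53 in the nucleus and takes part in autophagy. It had 58.9, 63.9 and 61.3 CPM in the KO-titled libraries, from 2129 to 2498 counts, and 90.6 and 79.7 CPM in the WT libraries, from 2716 and 3117 counts. Every KO-titled library was below both WT libraries, and the KO-titled values lay close together. The mean fell from 85.2 ± 7.67 CPM (n = 2) to 61.4 ± 2.49 CPM (n = 3), 1.39-fold, with a log2 fold change of -0.47 ± 0.10 and a 95% interval of -0.69 to -0.25 (edgeR adjusted p = 0.0361). Of all tested genes 19.2% had a log2 fold change at least as large in size. The call held in 8 of 13 alternative settings, with adjusted p from 0.00326 to 0.50 over all 13. Leaving out KO library 2 (adjusted p = 0.0543), KO library 3 (0.156), WT library 1 (0.50) or WT library 2 (0.159) ended it, while the log2 fold change stayed between -0.56 and -0.37. The 2 transcripts of Trp53inp1 had nearly the same counts, 12882 and 12849 over the 5 libraries. Summing them, 1 of the 8 settings, largely counted the same reads again and is not separate support. The share of all tested genes called was 1.96%, 1.95% and 1.49% with RLE scaling, upper-quartile scaling and summed transcripts, where Trp53inp1 passed. Without the libraries whose loss ended the call, that share was 1.83% and 0.942% for KO libraries 2 and 3 and 0.0399% and 0.12% for WT libraries 1 and 2.

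Cdkn1a encodes p21, the inhibitor of cyclin-dependent kinases through which p53 stops the cell cycle, and is the best known p53 target. It stood at 12.1, 15.2 and 14.6 CPM in the KO-titled libraries (436 to 593 counts) and at 19.1 and 21.7 CPM in the WT libraries (574 and 847 counts). All KO-titled values lay below the WT values, and KO library 1 was the lowest. The log2 fold change of -0.55 ± 0.18 was larger in size than that of Trp53inp1 but did not pass (95% interval -0.93 to -0.17, edgeR adjusted p = 0.17), and it passed in 0 of 13 alternatives. Per Trp53 count there were 0.0407, 0.0512 and 0.0532 Cdkn1a counts in the KO-titled libraries and 0.0826 and 0.0854 in the WT libraries. The mean ratio was 0.0484 ± 0.0067 against 0.084 ± 0.00201 (exact two-sided permutation p = 0.2). The 2 RefSeq transcripts of Cdkn1a, which the annotation starts at separate promoters, differed by 1 count over the 5 libraries, so the table does not separate the promoter with the paired decamers from the other.

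Ccng1 encodes cyclin G1, which brings a phosphatase to Mdm2 and so feeds back on p53. It was at 149.8, 153 and 146 CPM in the KO-titled libraries and at 122 and 116 CPM in the WT libraries. The KO-titled libraries were all higher and spread little. The log2 fold change was 0.33 ± 0.09 with a 95% interval of 0.14 to 0.52 (edgeR adjusted p = 0.0805). The gene missed the threshold here, but passed in 5 of 13 alternatives: DESeq2 (adjusted p = 0.0137), limma with weights for samples (0.0214), KO library 1 left out (0.0215), a transcript length offset (0.0465) and no count filter (0.0483). In the same order, these settings called 3.95%, 4.28%, 4.7%, 2.43% and 2.67% of all genes they tested. In log2 CPM, KO library 1 correlated with KO libraries 2 and 3 at 0.965 and 0.9646 (Pearson). KO libraries 2 and 3 correlated with each other at 0.9802. The limma weights and the loss of KO library 1 may thus act on the same library. Whether they did was not tested, so they are not counted as separate support. Over the 13 alternatives adjusted p ran from 0.0137 to 0.455.

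**Figure D2:**
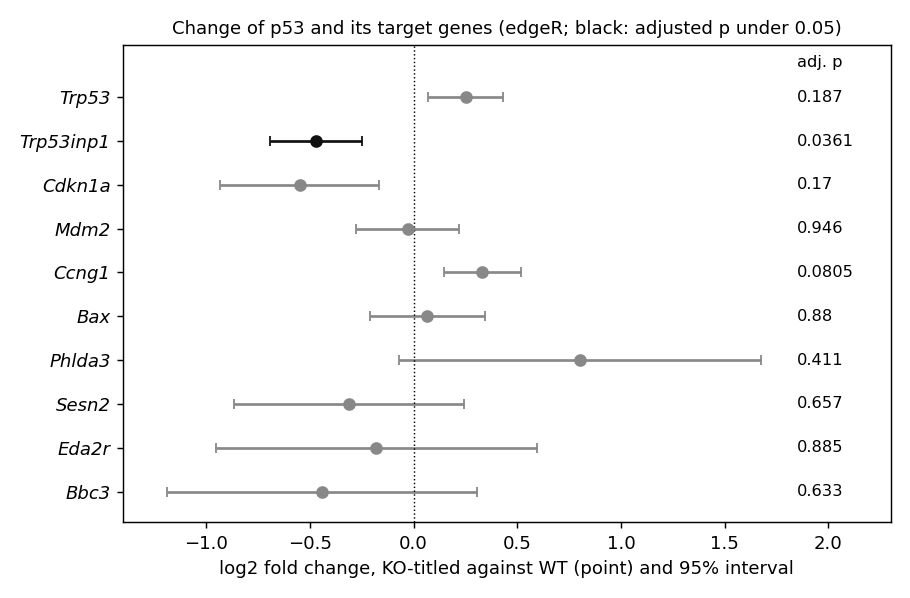
Log2 fold change of each gene, KO-titled against WT (points), with 95% intervals (bars) from edgeR and the adjusted p at the right; black marks an adjusted p under 0.05. Trp53inp1, at -0.47, is the only black point, and the intervals of Trp53, Cdkn1a and Ccng1 also leave out 0 while those of the other 6 genes include it.

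Bax and Bbc3 act in the mitochondrial death pathway. Bax, which forms pores in the outer mitochondrial membrane, stood at 30.6, 30.9 and 32.1 CPM in the KO-titled libraries and at 30.02 and 29.6 CPM in the WT libraries. The groups did not overlap, but the gap was small: the log2 fold change was 0.07 ± 0.13 (95% interval -0.21 to 0.35, edgeR adjusted p = 0.88). Bbc3 encodes PUMA, a protein that switches Bax on, and stood at 2.80, 3.38 and 4.48 CPM against 5.60 and 4.07 CPM, from 101 to 177 counts. KO library 3 lay above WT library 2, so the groups overlapped, and the log2 fold change was -0.44 ± 0.34 (adjusted p = 0.633). Its interval, -1.19 to 0.30, is wide, and a change of 2-fold lower lies within it.

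Phlda3, Sesn2 and Eda2r act on growth signalling or at the cell surface. Phlda3, whose protein holds back the survival kinase Akt, was at 4.37, 4.07 and 3.52 CPM in the KO-titled libraries and at 3.0 and 1.59 CPM in the WT libraries. All KO-titled values were higher, and the WT values differed most between themselves (90 and 62 counts). The log2 fold change of 0.80 ± 0.40 was the largest in size among the 10 and did not pass (95% interval -0.07 to 1.68, edgeR adjusted p = 0.411). It was 1.33 without WT library 1 and 0.41 without WT library 2.

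Sesn2 encodes a sestrin, which restrains the growth regulator mTORC1 under amino acid or oxidative stress. KO library 1 stood apart at 7.36 CPM, and the other values were 12.6 and 14.2 CPM in KO libraries 2 and 3 and 13.4 and 14.9 CPM in the WT libraries. The log2 fold change was -0.31 ± 0.26 (edgeR adjusted p = 0.657) and -0.08 without KO library 1. Eda2r, a receptor of the TNF receptor family on the X chromosome, was at 3.41, 3.17 and 2.79 CPM against 3.30 and 3.76 CPM, with overlapping groups (log2 fold change -0.18 ± 0.36, 95% interval -0.95 to 0.60, adjusted p = 0.885). Of its 3 RefSeq transcripts, 2 had identical counts, and the third had 33, 53 and 55 counts in the KO-titled libraries and 52 and 68 in the WT libraries, against 123, 124, 110, 99 and 147 for the row kept.

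Compared per transcript length (RPKM, CPM per kilobase of the transcript kept), the 10 genes spanned a wide range of levels. In KO-titled libraries the mean level was 155 RPKM for Trp53, 42.6 for Ccng1, 36.01 for Bax, 22.9 for Mdm2, 11.4 for Trp53inp1, 7.29 for Cdkn1a, 3.27 for Sesn2, 2.78 for Phlda3, 1.96 for Bbc3 and 0.657 for Eda2r. In WT libraries Bax (34.4 RPKM) and Ccng1 (33.8 RPKM) stood side by side with overlapping libraries, and Bbc3 (2.67 RPKM) stood before Phlda3 (1.6 RPKM). Sesn2 and Phlda3, and Phlda3 and Bbc3, overlapped in the KO-titled libraries, and every other pair of neighbours in either order was apart in all libraries of the group. In both groups the Trp53 and Mdm2 messages were more abundant than those of Cdkn1a and Bbc3.

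The genes nearest to Trp53inp1 in pattern were searched among 9542 named genes with a mean of at least 10 CPM, by the root mean square difference of log2 CPM centred on each gene's mean over the 5 libraries. They were Tomm20, a subunit of the mitochondrial import receptor (difference 0.0307), the endothelial and stem cell adhesion receptor gene Adgrl4 (0.034), the peroxisomal hydrolase gene Nudt7 (0.0374), the G-CSF receptor gene Csf3r (0.0391) and the zinc finger gene Zfp971 (0.0429). This is a likeness over 5 libraries and carries no test.

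Around the 10 genes, 92 others of the pathway were read from the same fit, in 7 lists, and 86 of them passed the filter on low counts. Of the 86, 1 was called, Ak1, which fell, while the fit called 1.97% of all tested genes. The median log2 fold change over the 86 was 0.06, with 54 above 0 and 32 below. Phlda1 and Bcl2a1b passed the filter through KO-titled libraries alone, so the filter largely set their side of WT. Without them 84 genes remained, 52 above 0 and 32 below, with a median of 0.05. Of these 84, 16 stood at an unadjusted p under 0.05 (10 higher and 6 lower), against 13.8% of all tested genes (6.76% higher and 7.02% lower), shares that also apply to the counts of single lists below. DESeq2 and limma with sample weights each called 5 of the 86 genes. Over all tested genes they called 3.95% and 4.28%, shares that apply to their calls in single lists below. The lists were chosen with earlier results of these data known, so such counts are a description only.

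Of 18 regulators of p53, 17 were tested and 0 passed in edgeR (4 at an unadjusted p under 0.05, 2 in each direction, and 1, Chek1, in DESeq2 and in limma). The nearest were the checkpoint kinase genes Chek1 (70.8 ± 2.72 against 53.5 ± 1.26 CPM, log2 fold change 0.40 ± 0.10, edgeR adjusted p = 0.0701) and Chek2 (59.6 ± 7.64 against 45.6 ± 4.15 CPM, 0.39 ± 0.13, adjusted p = 0.189). The 2 lower ones were the kinase gene Atr (82.96 ± 2.23 against 99.05 ± 7.70 CPM, -0.26 ± 0.10, edgeR adjusted p = 0.245) and Rpl5 (-0.31 ± 0.14, adjusted p = 0.361). Mdm4, the partner of Mdm2 in restraining p53, was named after its values were seen and had 122 ± 20.01 CPM, against 123 ± 4.79 CPM in WT (adjusted p = 0.973). Cdkn2a, whose product Arf shields p53 from Mdm2, had 0 counts in all 5 libraries, below the 0.0756 to 0.1 CPM (before TMM rescaling) of 3 counts. The ribosomal protein genes Rpl5 and Rpl11, also regulators of Mdm2, have many processed copies and are uncertain.

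Among 13 family members and paralogues of the 10 genes, 11 were tested, Phlda1 among them, and 0 passed in edgeR (2 lower at an unadjusted p under 0.05, and 1, Ccng2, in DESeq2 and in limma). The p53 relatives Trp63 and Trp73 had 0 counts in every library, apart from 2 counts of Trp73 in WT library 1. Ccng2, the paralogue of Ccng1, was at 52.2 ± 1.46 against 69.8 ± 5.87 CPM (log2 fold change -0.42 ± 0.11, edgeR adjusted p = 0.0697), so the values of the 2 cyclin G genes lay on opposite sides of WT. The same held for Trp53inp2, named after its values were seen, at 3.45 ± 1.62 against 1.80 ± 0.00731 CPM (adjusted p = 0.407). Cdkn1c, which encodes the p21 relative p57, a quiescence factor of stem cells, had 11.02 ± 2.20 CPM, against 15.4 ± 0.399 CPM in WT (log2 fold change -0.49 ± 0.21, adjusted p = 0.33).

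Further p53 targets numbered 41 in 3 lists. Of 15 targets of arrest and repair 0 passed in edgeR (1, Gtse1, at an unadjusted p under 0.05, in DESeq2 and in limma), with a median log2 fold change of 0.06. The mitotic regulator Gtse1 stood at 35.8 ± 3.81 against 23.7 ± 2.71 CPM (0.59 ± 0.15, edgeR adjusted p = 0.066) and the kinase gene Plk2 at 24.03 ± 9.88 against 14.6 ± 6.86 CPM (adjusted p = 0.484). Of 11 death targets 0 passed in edgeR, DESeq2 or limma (1 at an unadjusted p under 0.05) and 8 were above 0, with Trp53i11 at 81.1 ± 6.88 against 66.98 ± 5.77 CPM (adjusted p = 0.281) and the exonuclease gene Aen at 35.98 ± 5.50 against 29.96 ± 0.121 CPM (adjusted p = 0.477).

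Of 15 targets of metabolism and other functions, 14 were tested. Ak1, the cytosolic adenylate kinase that balances ATP, ADP and AMP, fell 1.80-fold: it was at 11.9, 9.85 and 10.96 CPM in the KO-titled libraries and at 17.8 and 21.4 CPM in the WT libraries. The groups were well apart, and the log2 fold change was -0.85 ± 0.19 (95% interval -1.25 to -0.44, edgeR adjusted p = 0.0368). Leaving out KO library 2 (adjusted p = 0.0864), KO library 3 (0.137), WT library 1 (0.248) or WT library 2 (0.394) ended the call, within a range from 0.00359 to 0.394 over 13 alternatives. Pml, the organiser of nuclear bodies, stood at 243 ± 16.4 against 207 ± 14.2 CPM (adjusted p = 0.267).

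In the BCL2 family outside the 10 genes, 8 of 10 genes were tested and 0 passed in edgeR, DESeq2 or limma. Without Bcl2a1b, 2 of 7 stood at an unadjusted p under 0.05, 1 in each direction. The survival gene Bcl2 had 180.1 ± 7.39 CPM, against 215 ± 5.64 CPM in WT (log2 fold change -0.25 ± 0.08, edgeR adjusted p = 0.173), and Bcl2l1, which encodes the survival protein BCL-XL, at 42.8 ± 3.19 against 34.9 ± 1.24 CPM (0.30 ± 0.12, adjusted p = 0.307). Per Bcl2 count there were 0.169, 0.179 and 0.172 Bax counts in the KO-titled libraries and 0.143 and 0.135 in the WT libraries. All 3 KO-titled ratios were higher (0.174 ± 0.0053 against 0.139 ± 0.00504, exact two-sided permutation p = 0.2). Bcl2a1b had 8, 14 and 11 counts in the KO-titled libraries and 0 in both WT libraries. Against a floor of 3 counts per WT library this is at least 3.22-fold higher. The gene passed the filter through KO-titled libraries alone, which largely set its side of WT, so this bound is a description only. Bcl2a1b also has near-identical copies, so it is uncertain. The list median was -0.05, also with that gene at its bound, and -0.10 without it.

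The last list held 10 mitotic genes that p53 lowers indirectly, through p21 and the DREAM repressor complex. Of the 10, 0 passed in edgeR (4 at an unadjusted p under 0.05, all higher, against 6.76% of all tested genes, and 1, Kif23, in DESeq2 and in limma). All 10 had a log2 fold change above 0, from 0.13 to 0.35 with a median of 0.26, and 7 of 10 were higher with no overlap, against 16.5% of all tested genes. These genes are known to be transcribed together in dividing cells, so they are not independent measurements. The list was also chosen with earlier results of these data known, so the counts beside all genes are a description only. Kif23, a kinesin of cell division, stood at 122 ± 6.54 against 95.5 ± 9.65 CPM (adjusted p = 0.11), and Cdk1, the kinase that starts mitosis, at 183 ± 22.3 against 148 ± 2.69 CPM (adjusted p = 0.19).

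**Figure D3:**
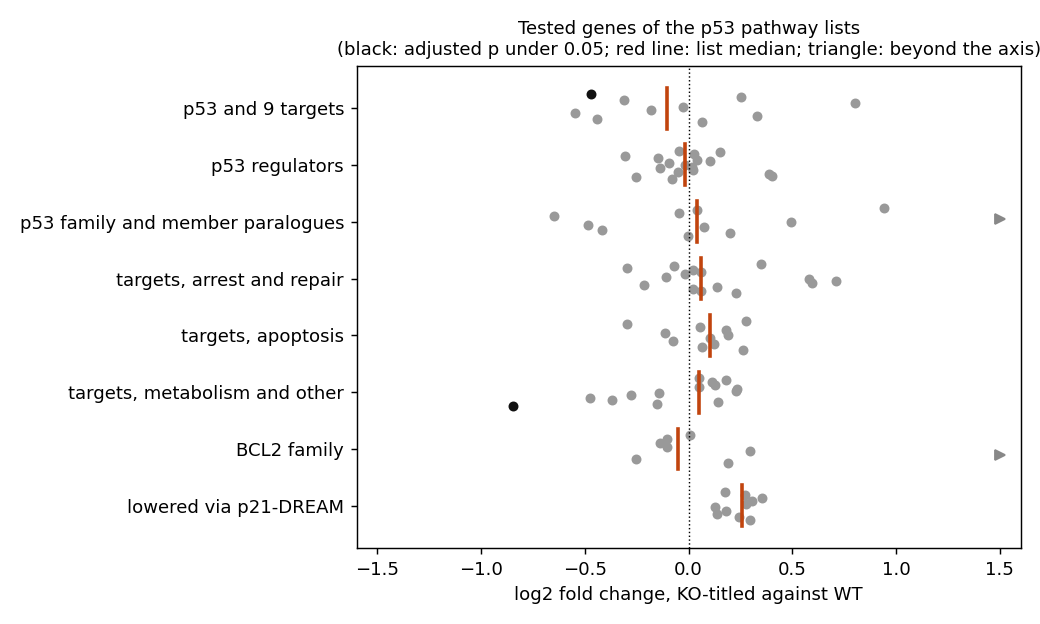
Log2 fold change, KO-titled against WT (horizontal axis), of each tested gene in the 8 lists (points, black for an adjusted p under 0.05), with the list median as a red line; triangles mark Phlda1 and Bcl2a1b, which lie beyond the axis. Trp53inp1 and Ak1 are the black points, and the mitotic genes lowered through p21 lie to the right of 0 in all 10 cases.

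The 4 genes at an unadjusted p under 0.05 kept their direction in every alternative setting that was run. They were picked by p in these same libraries and their groups did not overlap, so this outcome was nearly fixed in advance. It was also not particular to them. Bax, Phlda3, Sesn2, Eda2r and Bbc3 kept their direction too, and only Mdm2 changed sign. Trp53 ranged from 0.19 to 0.32, Ccng1 from 0.29 to 0.37, Trp53inp1 from -0.56 to -0.37 and Cdkn1a from -0.63 to -0.46 on the log2 scale. Leaving out 1 library narrowed or widened these values without changing their side of 0.

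**Figure D4:**
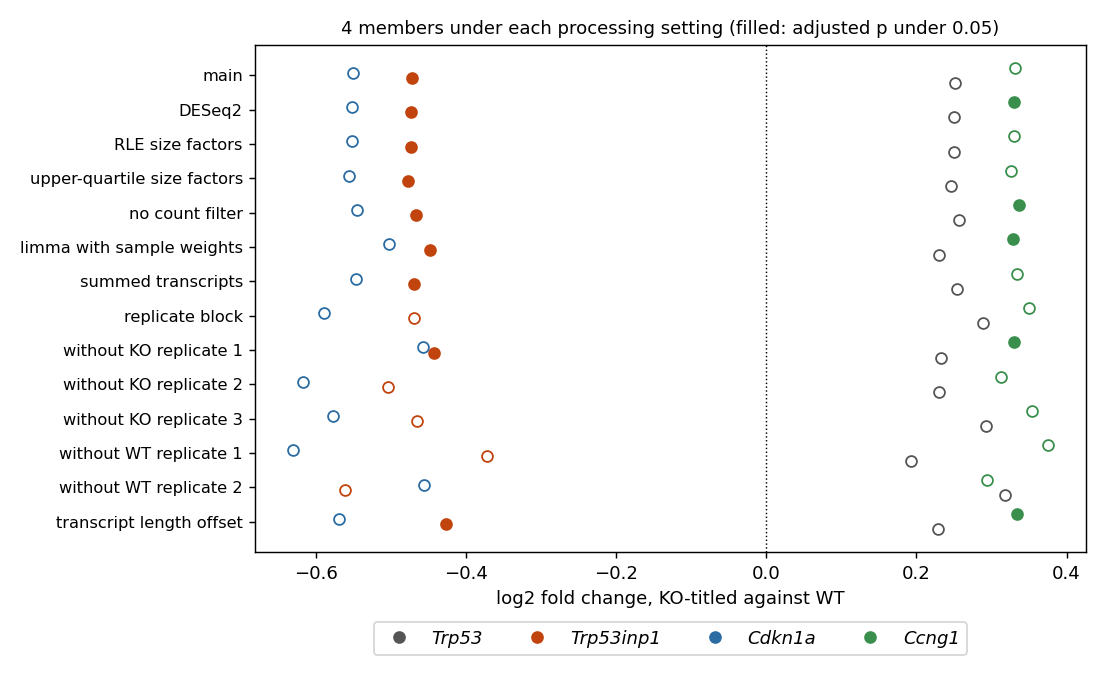
Log2 fold change of Trp53, Trp53inp1, Cdkn1a and Ccng1 (horizontal axis) under each processing setting (rows), with filled points where the adjusted p was under 0.05. Trp53inp1 is filled in 9 of the 14 rows, the top row being the reported fit, and Ccng1 in 5.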

How the data were processed

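Libraries of messenger RNA from sorted LSK cells were made with a stranded kit, per the labels' protocols. The authors deposited unnormalized counts of reads, with 5 libraries as columns and 33862 RefSeq transcripts as rows. The submitters' processing notes name STAR, Subread 1.4.5-p1, featureCounts and the build mm9 (NCBIM37). Strand use and the handling of shared reads: not given in the sources used here. The RefSeq table of GRCm38 gave symbols for 33485 transcripts and the GENCODE table for 188; the other 189 kept their accession and held 0.362% to 0.459% of counts. The transcript with the most counts was kept per gene, with its length from GENCODE.

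Groups came from the titles. After filterByExpr and TMM, a two-sided robust quasi-likelihood test in edgeR 4.0.16 under R 4.3.3 was run over all tested genes, and SE and 95% intervals were taken from it. On simulated counts for this comparison over 14221 genes, it recovered 35.8% of the 1.5-fold, 67.2% of the 2-fold and 77.8% of the 4-fold changes, with 5% of calls on genes left unchanged. Exact permutation tests used scipy 1.17.1. Alternatives were DESeq2 1.42.0, limma 3.58.1 with sample weights, other scalings, no filter, summed transcripts, a replicate block, each library left out and, added after the data were seen, a transcript length offset. Named in each pathway list were genes past the threshold and otherwise the 2 with the smallest p; others were chosen after their values were seen. The members and lists were chosen with earlier results of these data known. The gene targeted in the line is not reported here.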

Additional observations from a re-analysis of the deposited data

How the results depend on the processing

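Of 130 values of the 10 genes under 13 alternatives, 117 kept their direction and their side of the threshold; Trp53inp1 lost its call in 5, Ccng1 gained one in 5, and Mdm2 changed sign in 3 without a call, at 0.0048 with limma and sample weights, 0.039 without KO library 1 and 0.0486 without WT library 1 on the log2 scale (from -0.1213 to 0.0486 with 1 library left out). The cause was not tested. Of the 10 genes 2 changed, 1 of them higher, with DESeq2, limma, no count filter and the length offset, and 0 changed and 0 fell with the replicate number as a block; with 1 library left out 0 to 2 changed, 0 to 1 higher and 0 to 1 lower. Of the other pathway genes 5 changed (3 higher, 2 lower) with either DESeq2 or limma, 4 (2 higher, 2 lower) with no count filter, 2 (2 lower) with the length offset and 0 (0 lower) with the block; with 1 library left out 0 to 6 changed, 0 to 4 higher and 0 to 2 lower. Over all genes 287 changed, 115 higher and 172 lower; DESeq2 gave 575, 264 and 311, weighted limma 624, 247 and 377, no count filter 455 with 200 higher, and the block 160, 54 and 106. With 1 library left out 6 to 675 changed, 2 to 312 higher and 4 to 363 lower; without WT library 1 or 2 a single WT library is left, assumed to vary like the others. Deviations of KO and WT library 1 correlated at 0.043 and those of KO and WT library 2 at 0.017. These values cannot decide whether replicate numbers pair the libraries. With 2 WT libraries, their deviations from the WT mean mirror each other, and KO library 3 has no WT partner. The block, under which Trp53inp1 (adjusted p = 0.121) and Ak1 (0.142) lost their calls in edgeR, is given once here. Phlda3, Eda2r and Bbc3, with 62 to 177 counts per library, are limited by depth as well as by 5 libraries.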
